A study of Mus musculus with 24 samples.

Results

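The 10 genes described here are Hspa5, Dnajb9, Xbp1, Herpud1, Atf4, Ddit3, Trib3, Chac1, Hspa1a and Hspa1b, which report on protein-folding stress in the endoplasmic reticulum (ER) and the cytosol. They were chosen by name, as the rows of the count table whose Ensembl identifiers map to these symbols. All 10 were found among the 46078 identifiers of the table, and all 10 had a mean value of at least 10, so that they lay among the 18267 genes tested. The study sequenced RNA from the whole brains of naive C57BL/6N mice that were wild type (WT) or carried a Shank2 knock-out (KO). Brains were taken 14 days (P14) or 25 days (P25) after birth, which gave 4 groups of 6 libraries: P14 WT, P14 KO, P25 WT and P25 KO. All groups shared the strain and received no drug. Shank2 encodes a scaffold of excitatory synapses, and neither the removed exons nor the breeding scheme is stated. The labels mark 3 libraries of every group as a second batch, and the 3 without such a mark are called the first batch here.

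The unfolded protein response (UPR) starts at sensors in the ER membrane. One arm splices the Xbp1 transcript into a form that encodes an active transcription factor, another releases the factor ATF6, and the third, through the kinase PERK, phosphorylates the initiation factor eIF2 and so favours translation of Atf4. XBP1 and ATF6 raise ER chaperones and the machinery that degrades misfolded ER proteins. ATF4 raises amino acid genes and Ddit3, which encodes the factor CHOP, and ATF4 with CHOP raises Trib3 and Chac1. The heat shock response is separate: HSF1 raises the cytosolic HSP70 genes Hspa1a and Hspa1b. In brain tissue these HSP70 genes also respond to handling, temperature and neuronal activity. Read counts per gene cannot tell the spliced from the unspliced Xbp1 transcript.

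Sequences upstream of the start sites are shown for the 5 members whose changes or shared patterns the results turn on and that hold a recognised stress element there. They come from the RefSeq promoter table on GRCm38.p6, in which 10 of 10 members were matched. All are given 5′ to 3′ on the strand of the gene, with the matched element in capitals. The 250 bases upstream of Hspa1a (chr17:34972157-34972406, minus strand) and Hspa1b (chr17:34959239-34959488, minus strand) hold an inverted heat shock element, GAANNTTC, which HSF1 is known to bind, from 104 to 97 bases before the start.
Hspa1a: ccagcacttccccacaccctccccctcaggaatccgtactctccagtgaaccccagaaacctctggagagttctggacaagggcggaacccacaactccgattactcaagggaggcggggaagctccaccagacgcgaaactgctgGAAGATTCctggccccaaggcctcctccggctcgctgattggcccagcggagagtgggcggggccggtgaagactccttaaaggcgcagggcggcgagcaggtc
Hspa1b: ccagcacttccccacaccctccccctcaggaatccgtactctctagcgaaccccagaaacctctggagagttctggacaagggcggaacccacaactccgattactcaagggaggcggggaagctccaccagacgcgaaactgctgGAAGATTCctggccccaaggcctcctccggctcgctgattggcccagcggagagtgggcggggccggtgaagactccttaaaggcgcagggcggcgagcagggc
The stretches were identical at 247 of 250 bases. Counted from 1 at the 5′ end, with the Hspa1a base first, they differed by C44T, T47C and T249G. Hspa5 (chr2:34772020-34772049, plus strand, a 30-base window) holds the ER stress element, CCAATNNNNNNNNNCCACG, known as a site of ATF6 with NF-Y, from 65 to 47 bases before the RefSeq start. The GENCODE gene model of Hspa5 begins upstream of this window.
Hspa5: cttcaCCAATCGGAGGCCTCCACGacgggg
Herpud1 (chr8:94386179-94386428, plus strand) holds a shorter ER stress element, ATTGGNCCACG, from 52 to 42 bases before the start. It also holds a C/EBP-ATF response element, TGATGNAA read on the other strand, from 112 to 105 bases before it; this is the kind of site that ATF4 binds.
Herpud1: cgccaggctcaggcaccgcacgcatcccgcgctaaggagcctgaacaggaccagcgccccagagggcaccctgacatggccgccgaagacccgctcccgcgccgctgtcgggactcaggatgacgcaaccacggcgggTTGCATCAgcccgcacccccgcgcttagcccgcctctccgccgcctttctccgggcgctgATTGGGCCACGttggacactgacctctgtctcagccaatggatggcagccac
Chac1 (chr2:119350992-119351228, plus strand) holds the same C/EBP-ATF element from 193 to 186 bases before the RefSeq start. The printed stretch is cut before the first GENCODE exon base, 119351229, which lies upstream of the RefSeq start.
Chac1: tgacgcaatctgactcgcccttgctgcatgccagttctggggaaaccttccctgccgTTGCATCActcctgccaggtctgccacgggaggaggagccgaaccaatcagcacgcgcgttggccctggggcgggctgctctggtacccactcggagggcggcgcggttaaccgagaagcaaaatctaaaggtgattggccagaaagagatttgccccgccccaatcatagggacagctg
Both strands of the 300-base windows (250 bases before the start to 50 after it) were searched, and the same letters occur in other promoters. Of 32851 promoters, 7.86% held GAANNTTC, 0.119% the ER stress element, 0.0365% the shorter ER stress element and 3.97% the C/EBP-ATF element, which Trib3 holds from 15 to 22 bases after its start. The everted heat shock element TTCNNGAA was found in 0 members and in 8.52% of promoters. The unfolded protein response element TGACGTGG was found in 0 members and in 0.676%. A match is a stretch of letters, not evidence of binding.

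Read totals ran from 27552844 to 40787586 per library. Values are the deposited read counts after division by 1 size factor per library, and a difference between groups was taken on log2(value + 1) and has its standard error (SE) from the limma fit. The targeted gene Shank2 ran from 3932 to 12778 in P14 WT and from 1899 to 6458 in P14 KO, and from 6382 to 13358 in P25 WT and 2217 to 5153 in P25 KO. At P25 6 of 6 KO libraries lay below every WT library, and at P14 3 of 6. The libraries differed in regional makeup, read from marker lists as the mean log2 distance from the average of all 24 libraries. The cerebellar granule neuron list ran from −3.19 to 4.67. By these lists 11 libraries were forebrain-rich (granule list below its mean, olfactory bulb list at most 1 above). They were 4 P14 WT, 3 P14 KO, 2 P25 WT and 2 P25 KO libraries. Those of P25 were all of the first batch, and those of P14 came from both batches. Results given below for forebrain-rich libraries alone thus rest on 2 libraries of each genotype at P25. A further 7 were cerebellum-rich, with a granule list over 3 above its mean: P14 KO replicate 1, P25 WT replicates 4, 5 and 6 and P25 KO replicates 2, 5 and 6. Another 4 libraries had an olfactory bulb list 3.44 to 4.30 above its mean. These were replicates 4 and 6 of P14 KO, replicate 5 of P14 WT and replicate 4 of P25 KO. P14 WT replicate 5 also stood 8.56 above the mean in a list of olfactory epithelium genes (summed value 128006 there, and 160 to 1324 in P14 KO) and 3.53 above in blood cell genes. P25 WT replicate 3 stood 7.54 above the mean in pituitary genes. At P25 5 of the 6 cerebellum-rich libraries belong to the second batch, so batch and regional makeup cannot be told apart there. The whole-brain label thus covers libraries of uneven regional content, and in such bulk RNA fewer cells of a type and less RNA per cell cannot be told apart.

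Per length, averaged over 24 libraries as RPKM (reads divided by exon length and library total), Hspa5 was the most abundant of the 10 and the HSP70 and ATF4-CHOP output genes the least. Hspa5 stood at 77.2 ± 19.7 RPKM (SD, n = 24) and Atf4 at 45.2 ± 8.11. Xbp1 (25.1 ± 5.16) and Herpud1 (22.1 ± 5.87) came next and overlapped, with Xbp1 above Herpud1 in 16 of 24 libraries. Dnajb9 stood at 14.7 ± 1.96 RPKM and Ddit3 at 12.2 ± 3.35. Chac1 stood at 3.31 ± 0.923, Hspa1b at 1.25 ± 0.674, Hspa1a at 0.888 ± 0.329 and Trib3 at 0.656 ± 1.93, the last set by P14 WT replicate 5. Of neighbours in this order, only Ddit3 and Chac1 had ranges over the 24 libraries that lay apart. Hspa1a and Hspa1b are near-identical copies: 58.8% and 62.3% of the 50-base windows of their transcripts occur in the other, so reads could be split or lost between them and their separate values are uncertain. Of the 2967 exon bases of Hspa1a, 2225 lie within the span of the protein-coding gene Gm20481 on the opposite strand, which stood at 0 in all libraries. The spans of Herpud1 and the antisense gene Gm15890 (0 to 4.38) share 535 bases. Exons of the overlapping genes were not compared. The sources used here do not state whether reads were counted by strand. Where exons of both genes overlap, reads without strand cannot be assigned, so the level and rank of Hspa1a may be uncertain for this reason too.

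The Ensembl identifiers in the table are ENSMUSG00000026864 (Hspa5), ENSMUSG00000014905 (Dnajb9), ENSMUSG00000020484 (Xbp1), ENSMUSG00000031770 (Herpud1), ENSMUSG00000042406 (Atf4), ENSMUSG00000025408 (Ddit3), ENSMUSG00000032715 (Trib3), ENSMUSG00000027313 (Chac1), ENSMUSG00000091971 (Hspa1a) and ENSMUSG00000090877 (Hspa1b).

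**Figure D1:**
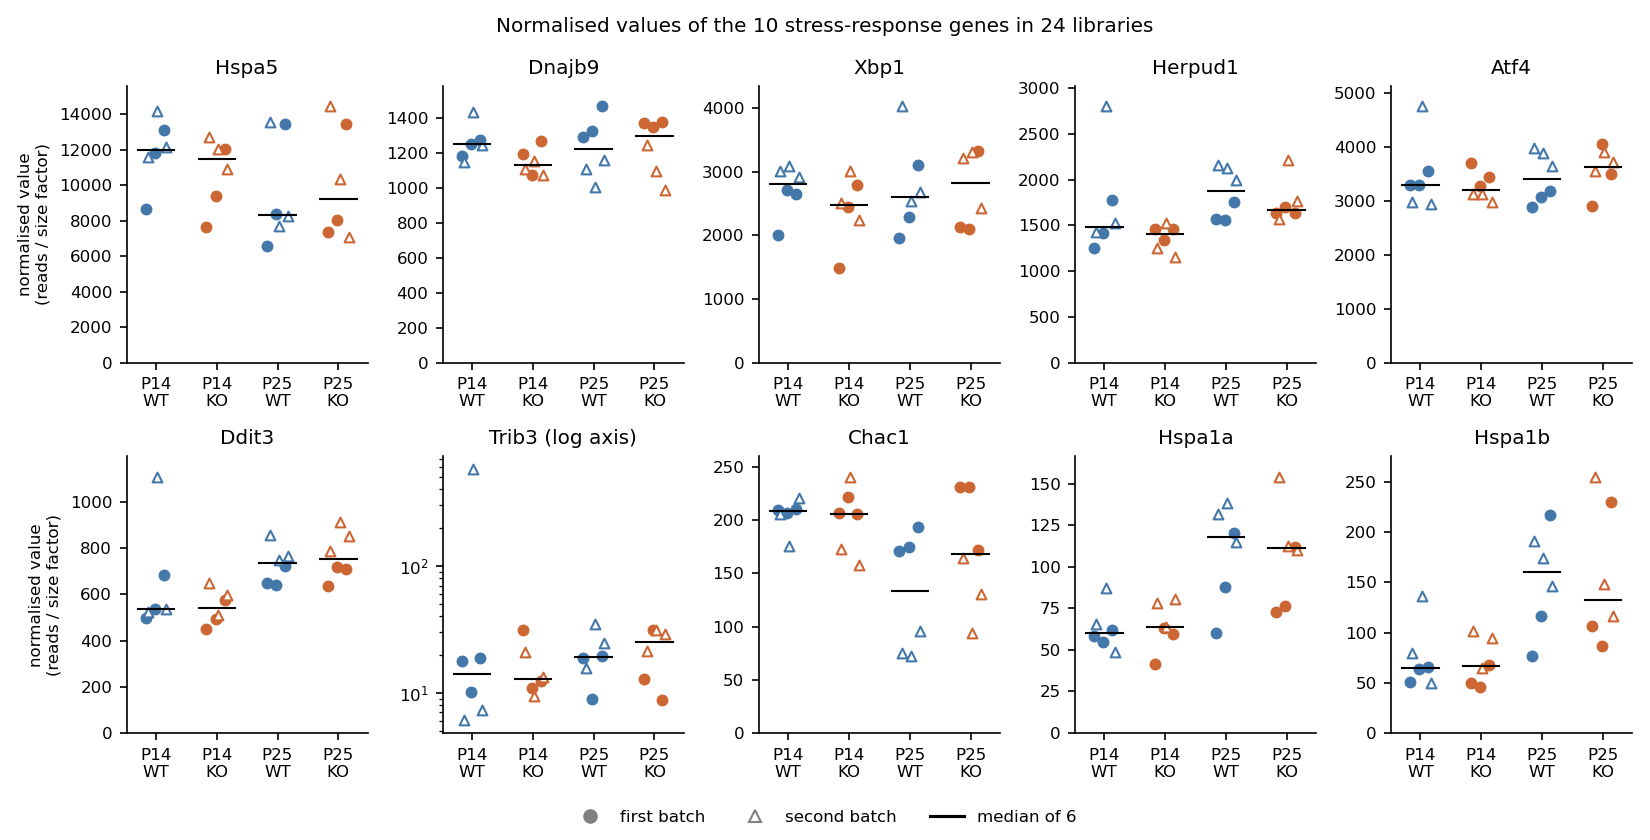
Normalised values (reads divided by the size factor of the library) of the 10 genes in the 4 groups of 6 libraries; circles are first-batch and triangles second-batch libraries, the bar is the median, and Trib3 is on a log axis. Hspa1a and Hspa1b sit higher at P25 than at P14 in both genotypes, P14 WT replicate 5 stands apart in several panels (Trib3 at 579), and the second-batch Chac1 values at P25 reach down to 72.6.

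The comparison of KO with WT asks whether losing Shank2 engages these stress pathways in the young brain. None of the 10 genes passed at P14 or at P25, and neither did any other gene: limma called 0 of 18267 (0%) at each age. The targeted gene Shank2 was thus not called either. Its KO mean was 51.3% of the WT mean at P14 and 40.6% at P25, where 6 of 6 KO libraries lay below every WT library. The lack of a call in this fit therefore does not by itself show the lack of a change of that size. At an unadjusted p under 0.05 there were 554 genes at P14 and 98 at P25, of which 0 and 1 were members. On the recovered reads edgeR called 0 genes at either age (870 and 165 unadjusted) and DESeq2 1 and 4 (890 and 394 unadjusted), 0 of them members. The difference of the KO effects between the ages also gave 0 calls of 18267 (0%) with limma (189 unadjusted), 0 with edgeR (283 unadjusted) and 1 with DESeq2 (351 unadjusted). Among the members, 1 of 10 had a higher value in KO at P14 (median difference −0.14, all genes −0.003) and 8 of 10 at P25 (median 0.04, all genes −0.001). Every member except Chac1 had its highest P14 WT value in replicate 5. Below, the P14 differences of Herpud1, Ddit3 and Trib3 are also given without that library. Like most members, some marker lists of other cells had lower values in P14 KO. Of choroid plexus genes 0 of 13 were higher (median −1.61), of olfactory epithelium genes 0 of 10 (−1.32) and of blood cell genes 0 of 9 (−0.55). Of oligodendrocyte genes 0 of 12 were higher (−0.61) and of endothelial and mural genes 0 of 11 (−0.20). Other lists went up: 14 of 14 olfactory bulb genes were higher (median 0.73), 7 of 9 Purkinje (0.18), 7 of 12 cerebellar granule (0.13) and 6 of 11 pyramidal neuron genes (0.01). Of these lists 0 genes passed. The choroid plexus list level ran from −1.45 to 2.06 in P14 WT and from −2.95 to 1.00 in P14 KO, and the part of these cells in the members' values was not tested. The genotype-by-batch terms called 0 genes (0%) at both ages, with 250 and 529 at an unadjusted p under 0.05 by limma and 495 and 1142 by edgeR.

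The ER chaperone Hspa5, which encodes BiP (GRCm38 chromosome 2, 34771970 to 34777547, plus strand), ran from 8677 to 14218 (median 11988) in P14 WT and from 7627 to 12737 (median 11470) in P14 KO. At P25 it ran from 6557 to 13555 (median 8312) in WT and from 7089 to 14452 (median 9206) in KO. The groups overlapped nearly fully at both ages, with a few high libraries in each P25 group. The KO difference was −0.15 (SE 0.20) at P14 and 0.07 (SE 0.20) at P25, and the 95% interval at P25 ran from −0.36 to 0.49. Dnajb9, the BiP cochaperone ERdj4 (chromosome 12, 44205559 to 44210326, minus strand), ran from 1146 to 1434 (median 1249) in P14 WT and from 1072 to 1270 (median 1132) in P14 KO. Of the P14 KO libraries 3 of 6 lay below every P14 WT library. The difference at P14 was −0.13 (SE 0.07, limma adjusted p = 1) and that at P25, 0.01 (SE 0.07).

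Xbp1, which encodes the transcription factor of the IRE1 arm (chromosome 11, 5520659 to 5525893, plus strand), had medians of 2808 in P14 WT and 2477 in P14 KO, with ranges of 2006 to 3094 and 1486 to 3007. At P25 its medians were 2606 and 2821, and WT replicate 4 had the highest of all values, 4023. The KO differences were −0.20 (SE 0.16) and 0.00 (SE 0.16), so the genotypes were not separated at either age. Herpud1, an ER membrane protein that helps degrade misfolded proteins (chromosome 8, 94386438 to 94395377, plus strand), ran from 1256 to 2800 (median 1477) in P14 WT and from 1153 to 1526 (median 1400) in P14 KO. The highest WT value belonged to replicate 5; the next was 1779. Its KO difference at P14 was −0.27 (SE 0.14, limma adjusted p = 1), with −0.05 in the first batch and −0.49 in the second. Without P14 WT replicate 5 the difference was −0.11 (SE 0.10), and in forebrain-rich libraries alone it was 0.06 (SE 0.06). At P25 the difference was −0.08 (SE 0.14).

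The PERK arm gave the same picture. Atf4 (chromosome 15, 80255184 to 80257541, plus strand) had medians of 3295 and 3205 in P14 WT and KO, and 3417 and 3639 in P25 WT and KO. Its differences were −0.07 and 0.07 (SE 0.10 each), and its 95% interval at P25, −0.14 to 0.28, was among the narrower of the set. Ddit3, encoding CHOP (chromosome 10, 127290774 to 127296288, plus strand), ran from 499 to 1108 (median 536) in P14 WT and from 448 to 647 (median 543) in P14 KO. At P25 it ran from 641 to 857 (median 735) in WT and from 637 to 913 (median 751) in KO. KO minus WT gave −0.20 (SE 0.14) at the younger age and 0.07 (SE 0.14) at the older; without P14 WT replicate 5 the first became −0.04 (SE 0.09). The gene span of Ddit3 shares 68 bases with that of Mars on the opposite strand.

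Trib3, a pseudokinase that ATF4 and CHOP induce (chromosome 2, 152337422 to 152344032, minus strand), stood between 6.05 and 18.7 in 5 of the P14 WT libraries and at 579 in P14 WT replicate 5. It ran from 9.45 to 31.5 (median 12.8) in P14 KO, from 8.96 to 35.0 (median 19.1) in P25 WT and from 8.76 to 31.4 (median 25.3) in P25 KO. Its difference at P14, −0.51 (SE 0.74), became 0.49 (SE 0.35) without that library, and neither passed. In the same library Ddit3 stood at 1108, Herpud1 at 2800, Atf4 at 4755 and Hspa1b at 136, each the highest of its group. Hspa5 (14218), Dnajb9 (1434), Xbp1 (3094) and Hspa1a (87.3) also had their highest P14 WT value there, and Chac1 (176) its lowest. The olfactory epithelium and blood lists stood at their highest in this library; their part in these values was not tested.

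Chac1 (chromosome 2, 119351229 to 119354381, plus strand), a glutathione-degrading enzyme induced by ATF4, had the only member difference with an unadjusted p under 0.05. It ran from 176 to 221 (median 208) in P14 WT and from 158 to 240 (median 206) in P14 KO. At P25 the WT libraries stood at 171, 174 and 193 in the first batch and at 75.2, 72.6 and 95.7 in the second. The P25 KO libraries stood at 231, 231 and 172 in the first batch and at 164, 94.3 and 130 in the second. Thus 2 of 6 KO values exceeded the highest WT value and the rest overlapped. The KO difference at P25 was 0.43 (SE 0.14, limma unadjusted p = 0.00508, adjusted p = 1), with 0.22 in the first batch and 0.64 in the second. All 3 second-batch P25 WT libraries were cerebellum-rich (granule list level 4.43 to 4.67), whereas KO replicate 4, with the highest second-batch Chac1 value (164), was at −2.02. The KO effect on the granule list was lower in the second batch than in the first by a median of −3.46, with 0 of 12 genes higher and 0 passing; its part in the Chac1 difference was not tested. The batch difference of this effect was 0.42 (SE 0.27) and did not pass. At P14 the difference was −0.04 (SE 0.14), and the change of the KO effect between the ages, 0.47 (SE 0.20, limma unadjusted p = 0.0252, adjusted p = 1), did not pass either. In forebrain-rich libraries alone the P25 difference was 0.21 (SE 0.15).

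Neither cytosolic HSP70 gene passed between the genotypes. Hspa1a (chromosome 17, 34969190 to 34972156, minus strand) had medians of 60.2 and 63.5 in P14 WT and KO and of 118 and 111 in P25 WT and KO. Its KO differences were 0.03 and −0.03 (SE 0.18 each), with 95% intervals of −0.34 to 0.40 and −0.40 to 0.34. Hspa1b (chromosome 17, 34956436 to 34959238, minus strand) had medians of 64.8 and 66.4 at P14 and of 160 and 133 at P25, with differences of −0.04 and 0.00 (SE 0.28 each). In forebrain-rich libraries alone its P25 difference was 0.73 (SE 0.38, limma adjusted p = 0.623). The intervals are wide enough to hold changes of over 0.3 on the log2 scale in either direction for both genes.

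**Figure D2:**
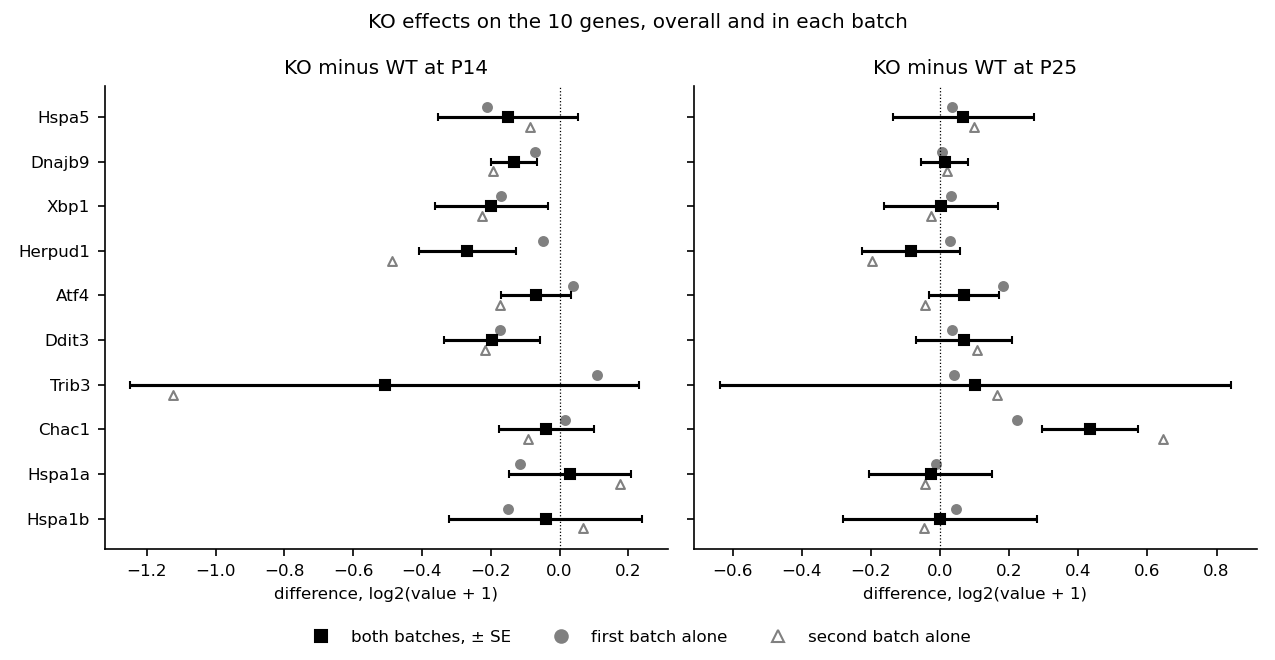
KO minus WT differences of the 10 genes on the log2(value + 1) scale at P14 (left) and P25 (right); squares with bars are limma estimates ± SE over both batches, circles the first batch alone and triangles the second. At P14 9 of 10 squares lie at or left of 0, with Herpud1 at −0.27; at P25 Chac1 is farthest to the right at 0.43, and none passed.

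Other genes of the same pathways were read from lists of known sensors, targets and chaperones, and 0 of them passed in the KO comparison at either age. Of the 21 ER chaperones and folding enzymes, 2 had higher values in KO at P14 (median −0.14) and 16 at P25 (median 0.04). The prolyl isomerase Fkbp2, which had the smallest p of that list at P14, had a difference of −0.22 (SE 0.07, limma adjusted p = 1). Of the 17 UPR sensors and translation control genes 8 were higher at P14 and 6 at P25 (medians −0.005 and −0.02); Ppp1r15a, which encodes the eIF2 phosphatase subunit GADD34, was at −0.40 (SE 0.20) at P14. Of 35 ATF4-CHOP targets 13 were higher at P14 and 29 at P25 (medians −0.01 and 0.04). Of 27 genes of ER-associated degradation and translocation 8 and 12 were higher (medians −0.05 and −0.003). Of 33 cytosolic heat shock genes 7 and 22 were higher (medians −0.04 and 0.03); the small heat shock protein gene Cryab was at −0.68 (SE 0.22, limma adjusted p = 1) at P14. Beside it, 12 of 12 oligodendrocyte markers had lower values in P14 KO (median −0.61, 0 passed). Their list level ran from −1.30 to 2.04 in P14 WT and from −2.22 to 1.27 in P14 KO, and its part in the Cryab value was not tested.

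Age separated the members more than genotype did. Hspa1a and Hspa1b rose from P14 to P25 in both genotypes, Chac1 fell in WT, and Ddit3 rose in KO. Limma called 5134 of 18267 genes between P25 and P14 in WT (28.1%; 13.7% higher and 14.4% lower at P25), and 3 of 10 members, 2 higher and 1 lower. In KO it called 2163 (11.8%; 5.9% higher and 5.95% lower), and 3 of 10 members, all higher. In WT the share of members called was thus close to that of all genes. The age and genotype comparisons use the same libraries. Over the 10 members the median age difference was −0.005 in WT (all genes −0.03) and 0.27 in KO (all genes −0.01).

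Hspa1a in P14 WT stood at 48.5, 54.7, 58.3, 62.1, 65.5 and 87.3, and in P25 WT at 60.2, 87.6, 115, 120, 132 and 138. Thus 5 of 6 P25 WT libraries lay above every P14 WT library, and 4 of 6 in KO. The rise was 0.76 in WT (SE 0.18, limma adjusted p = 0.00537), a 1.69-fold difference, and 0.70 in KO (SE 0.18, adjusted p = 0.0181). Hspa1b rose by 1.05 in WT (SE 0.28, limma adjusted p = 0.0112), or 2.07-fold, and by 1.09 in KO (SE 0.28, adjusted p = 0.0192). It ran from 76.4 to 218 in P25 WT against 49.7 to 136 in P14 WT, and 4 of 6 WT and 5 of 6 KO libraries at P25 lay above every P14 library of their genotype. These changes had the same direction in each batch taken alone: for Hspa1a 0.55 and 0.96 in WT and 0.66 and 0.74 in KO, for Hspa1b 1.05 and 1.05 in WT and 1.25 and 0.93 in KO. With 3 libraries a group, 1 of these 8 batch values passed (Hspa1a in WT, second batch, limma adjusted p = 0.0178). In forebrain-rich libraries alone Hspa1a was at 0.36 (SE 0.23) in WT and 0.52 (SE 0.24) in KO and no longer passed. There Hspa1b was at 0.65 (SE 0.33) in WT, which did not pass, and at 1.37 (SE 0.35, limma adjusted p = 0.0263) in KO, which did. With all batches, the KO rise of Hspa1b no longer passed without P14 KO replicate 2 (1.03, limma adjusted p = 0.0548) or P25 KO replicate 3 (0.90, adjusted p = 0.0517).

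Chac1 fell by 0.76 on the log2 scale from P14 to P25 in WT (SE 0.14, limma adjusted p = 0.00122), and 5 of 6 P25 WT libraries lay below every P14 WT library. In KO its difference was −0.29 (SE 0.14, adjusted p = 0.157). The fall was −0.22 in the first batch and −1.30 in the second, and −0.29 (SE 0.13) in forebrain-rich libraries, and neither the first-batch nor the forebrain-rich value passed. The granule list in WT ran from −3.07 to 2.71 at P14 and from −2.62 to 4.67 at P25, and 12 of its 12 genes were higher at P25 (median 2.15, 1 passed). Of 9 Purkinje neuron genes 9 were higher (median 2.69, 4 passed), while 7 of 10 microglia genes and 7 of 11 endothelial and mural genes fell. The part of these cells in the Chac1 fall was not tested. Without P25 KO replicate 4 the KO difference passed as well (−0.39, limma adjusted p = 0.0197). Ddit3 rose by 0.50 in KO (SE 0.14, limma adjusted p = 0.0272), where 5 of 6 P25 libraries lay above every P14 library, and its difference in WT was 0.23 (SE 0.14, adjusted p = 0.21). This call was lost in 6 of 24 fits that each left out a library, namely P14 KO replicates 2 and 5 and P25 KO replicates 2, 3, 5 and 6 (0.45 to 0.49, limma adjusted p from 0.0545 to 0.0732). In forebrain-rich libraries Ddit3 was at 0.36 in KO (adjusted p = 0.0286). The change of the age effect with genotype was 0.27 (SE 0.20) for Ddit3 and did not pass. Without P14 WT replicate 5 Ddit3 passed in WT as well (0.39, SE 0.09, adjusted p = 0.00722), as did Herpud1 (0.33, SE 0.10, adjusted p = 0.0188). Herpud1 was at 0.17 (SE 0.14) in WT and 0.36 (SE 0.14, adjusted p = 0.0957) in KO with all libraries, although 6 of 6 P25 KO libraries lay above every P14 KO library. In KO it passed without P14 WT replicate 5 (0.36, limma adjusted p = 0.0158) or without P25 KO replicate 4 (0.42, adjusted p = 0.0297). P14 WT replicate 5 is not in the KO comparison, and the difference was the same without it. That library entered only through the spread shared by all groups.

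**Figure D3:**
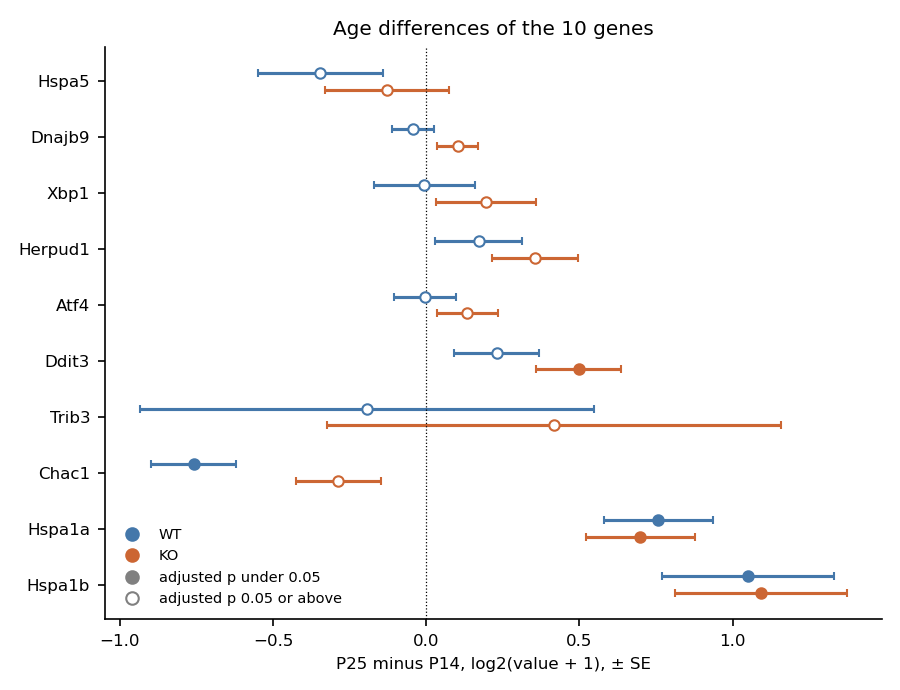
P25 minus P14 differences of the 10 genes on the log2(value + 1) scale, limma estimate ± SE, in WT (blue) and KO (orange); filled points had an adjusted p under 0.05. Hspa1a and Hspa1b are filled on the right in both genotypes, Chac1 is filled on the left in WT at −0.76, and Ddit3 is filled in KO at 0.50.

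The remaining members did not pass between the ages. Hspa5 was at −0.35 (SE 0.20) in WT and −0.13 (SE 0.20) in KO, Dnajb9 at −0.04 and 0.10 (SE 0.07 each), and Xbp1 at −0.01 and 0.20 (SE 0.16 each). Atf4 was at 0.00 and 0.13 (SE 0.10 each) and Trib3 at −0.19 and 0.42 (SE 0.74 each). Over all genes 14.4% fell and 13.7% rose in WT, and 5.95% fell and 5.9% rose in KO. Of the other pathway genes 42 passed for age in WT, 22 in forebrain-rich libraries only and 0 in the first batch only (all genes 5134, 2318 and 53). Among other ER chaperones 5 of 21 fell in WT and 2 in KO, and 0 rose. The disulfide isomerase gene Pdia3 fell by 0.59 on the log2 scale in WT (SE 0.12, limma adjusted p = 0.0024), and Ppib by 0.38 (SE 0.07, adjusted p = 0.00096). Of ATF4-CHOP targets 9 of 35 fell and 1 rose in WT, among them the amino acid transporter gene Slc7a5, which fell by 0.62 (SE 0.12, adjusted p = 0.00141). In KO 3 fell and 0 rose. Of the UPR sensors and translation control genes 2 of 17 rose and 3 fell in WT, including Eif2s1, the eIF2 subunit that the PERK arm phosphorylates, which fell by 0.33 (SE 0.07, adjusted p = 0.00431). In KO 1 rose and 3 fell.

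Genes of ER-associated degradation and translocation gave 3 rises and 8 falls of 27 in WT, and 1 and 3 in KO. The shares over all genes were, as above, 13.7% rises and 14.4% falls in WT, and 5.9% and 5.95% in KO. The translocon genes Ssr2 and Sec61g fell by 0.39 (SE 0.08) and 0.58 (SE 0.12) in WT. Cytosolic heat shock genes gave 5 rises and 6 falls of 33 in WT, and 5 rises and 0 falls in KO. Hspa4l, a nucleotide exchange factor for HSP70, rose by 0.72 in WT (SE 0.15, limma adjusted p = 0.00291) and 0.76 in KO (SE 0.15, adjusted p = 0.00519). The mitochondrial cochaperonin gene Hspe1 fell by 0.43 in WT (SE 0.08, adjusted p = 0.0016). Beside these, 5 of 27 immediate early genes fell and 0 rose in WT, while 1 rose in KO. Of 18 glucocorticoid-responsive genes, which also mark handling stress, 2 fell and 0 rose in each genotype.

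Between batches, members passed only at P25, although their median difference (second minus first batch) was similar at both ages, 0.24 at P14 and 0.26 at P25. Hspa1b was at 0.55 (SE 0.28) at P14 and 0.39 (SE 0.28) at P25, and Hspa5 at 0.26 and 0.11 (SE 0.20 each). Limma called 995 genes between batches at P14 (5.45%) and 0 members. At P25 it called 8565 (46.9%; 23.3% higher and 23.6% lower in the second batch), and 3 of 10 members: Chac1 at −0.93 (SE 0.14, adjusted p = 8.62e-05) and Dnajb9 at −0.31 (SE 0.07, adjusted p = 0.00126) were lower and Hspa1a at 0.55 (SE 0.18, adjusted p = 0.0158) was higher. The share of members was below that of all genes. The Hspa1a call was lost without P25 WT replicate 1 (0.44, limma adjusted p = 0.0505). Without P14 WT replicate 5, Ddit3 (0.27, adjusted p = 0.0181), Atf4 (0.22, adjusted p = 0.0117) and Herpud1 (0.26, adjusted p = 0.0276) passed too, and Atf4 also passed without P25 KO replicate 2 (0.28, adjusted p = 0.0226). P14 WT replicate 5 is not among the P25 libraries, and the differences of these genes were the same without it. It entered them only through the spread shared by all groups. Chac1 ran from 72.6 to 130 in the 5 cerebellum-rich second-batch libraries and from 164 to 231 in the other 7 P25 libraries. Dnajb9 ran from 989 to 1158 in the 5 and from 1244 to 1466 in the 7, and Herpud1 from 1765 to 2213 in the 5 and from 1558 to 1751 in the 7. Of these 7, P25 KO replicate 2, cerebellum-rich but of the first batch, had Chac1 at 231 and Dnajb9 at 1347. P25 KO replicate 4, second batch but rich in olfactory bulb markers, had 164 and 1244, the lowest of the 7.

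**Figure D4:**
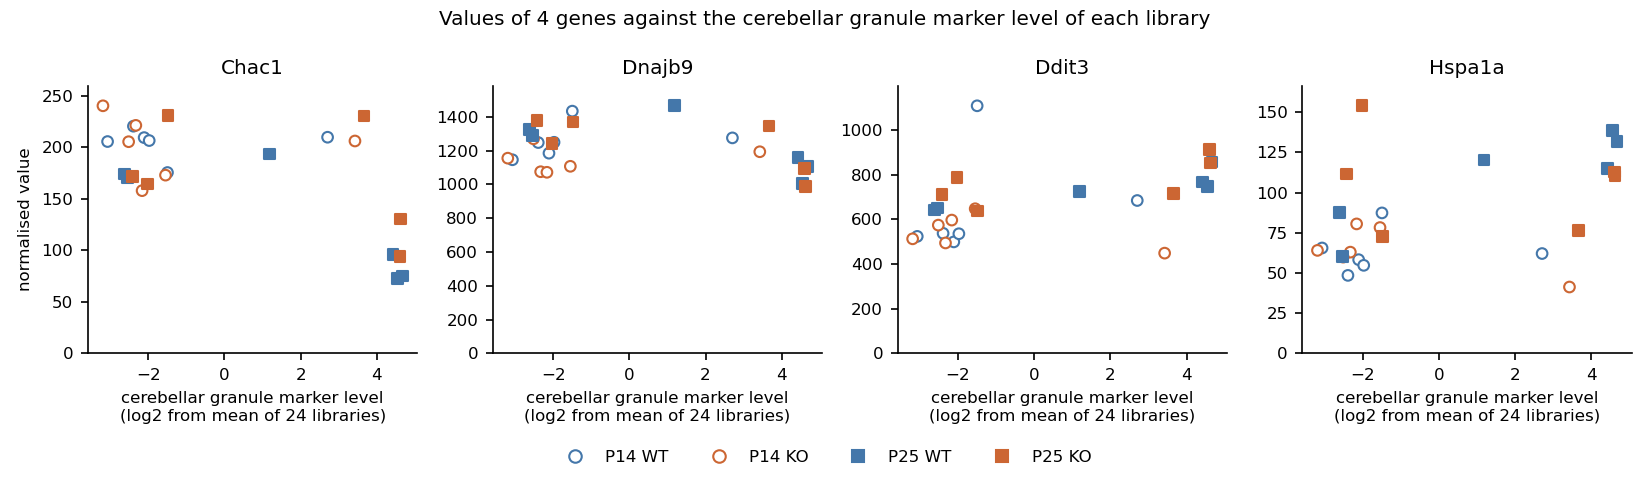
Normalised values of Chac1, Dnajb9, Ddit3 and Hspa1a against the cerebellar granule marker level of each library (mean log2 distance from the average of 24 libraries); open circles are P14 and filled squares P25, WT in blue and KO in orange. The 5 lowest Chac1 values, 72.6 to 130, all lie at granule levels above 4 in P25 libraries, while P14 WT replicate 3, P14 KO replicate 1 and P25 KO replicate 2, at levels of 2.71 to 3.67, have values above 200.

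After the means of each age, genotype and batch were removed, the members fell into pairs and blocks that varied together over the 24 libraries. These correlations share library and regional makeup and are given without a p. Hspa5 went with Xbp1 (r = 0.88, Spearman 0.90) and Hspa1a with Hspa1b (r = 0.88, Spearman 0.86). The genes most like Hspa5 among all tested were the ER chaperone genes Manf (r = 0.95), Sdf2l1 (r = 0.95) and Pdia4 (r = 0.93), and these values held without P14 WT replicate 5 (0.95, 0.95 and 0.93). Those most like Xbp1 were Manf (r = 0.91), Hspa5 and Ints3 (r = 0.88). For Chac1 the closest was the seryl-tRNA synthetase gene Sars (r = 0.79), an ATF4-CHOP target of the lists used here, followed by A430057M04Rik and Gjd3 (r = 0.79 each). With the level of the whole ATF4-CHOP target list, however, Chac1 had r = 0.11. Among the members its r was −0.41 with Ddit3, −0.31 with Atf4, −0.28 with Herpud1 and −0.25 with Trib3, and its highest was 0.23, with Dnajb9. The genes most like Dnajb9 were Rwdd4a (r = 0.83), Il10rb (r = 0.82) and Nek7 (r = 0.81).

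After each other, Hspa1a and Hspa1b shared C5ar1 (r = 0.82 and 0.87) and Tmc4 (r = 0.80 and 0.87) as most alike. For the other 4 members the likeness rested in part on P14 WT replicate 5. Trib3 was most like 5430419D17Rik (r = 0.97), Sgpl1 (r = 0.97) and Fmo5 (r = 0.96), and these fell to 0.80, 0.79 and 0.73 without that library. Ddit3 was most like Mslnl (r = 0.94), Prrx1 (r = 0.93) and Unc119b (r = 0.93), which fell to 0.77, 0.75 and 0.74. Atf4 was most like Rcor1 (r = 0.94), Tle3 (r = 0.94) and Zc3hav1 (r = 0.93), which fell to 0.83, 0.82 and 0.77. Herpud1 was most like Ltf (r = 0.94), Tpd52l2 (r = 0.93) and Hdlbp (r = 0.90), which fell to 0.84, 0.83 and 0.76.

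Libraries were also set side by side by replicate number. WT and KO libraries of an age that carry the same number also share the first element of their sample name in 12 of 12 cases; its meaning is not stated. Numbers 4 and 5 at P14 carry the same element, so that there are 11 such elements for the 12 pairs. At P25 Hspa5 stood at 6557 in WT and 7348 in KO of number 1, at 8381 and 8073 of number 2, and at 13462 and 13441 of number 3. It stood at 13555 and 14452 of number 4, at 7725 and 10340 of number 5, and at 8244 and 7089 of number 6. At P14 the pairs, WT first, were 8677 and 7627, 11807 and 9408, 13102 and 12030, 11576 and 12737, 14218 and 12040, and 12169 and 10911. With the means of each age and batch removed, the 12 pairs gave r = 0.86 for Hspa5 (Spearman 0.76, and r = 0.69 without the 2 pairs farthest from the median), a value that 0.153% of tested genes reached. Xbp1 had r = 0.70 (Spearman 0.72, 0.68 without 2 pairs) and Herpud1 r = 0.51 (Spearman 0.45, 0.18 without 2 pairs), against a median over all genes of −0.29.

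A 2-sided exact permutation of the KO numbers within age and batch (1296 arrangements, smallest possible p 0.00077) gave p = 0.0154 for Hspa5 and 0.0648 for Xbp1. Adjusted over the 18264 genes tested this way, the exact p was 0.475 and 0.505, and 0 genes passed (1811 at an unadjusted p under 0.05). Among the other members r was 0.34 for Hspa1b, 0.23 for Hspa1a, 0.16 for Atf4, 0.08 for Dnajb9, −0.34 for Ddit3 and −0.36 for Chac1 and Trib3, and the exact p ran from 0.212 (Herpud1) to 0.838 (Dnajb9). Of the 21 ER chaperones and folding enzymes 6 had r over 0.7 (28.6%; median of the list 0.47), against 1.24% of all genes tested: Calr, Hyou1, Pdia4, Pdia6, Sdf2l1 and Manf. Of the 27 genes of ER-associated degradation and translocation 1 did (3.7%, median −0.08), namely the lectin gene Edem1 (r = 0.91), named here after its value was seen. Of the 35 ATF4-CHOP targets 0 did (median −0.19). Several of the chaperone genes vary together (Manf, Sdf2l1 and Pdia4 with Hspa5 at r = 0.95, 0.95 and 0.93), so the 6 are not independent observations. The median r over all genes tested was −0.29, so the 1.24% is not the share that randomly matched numbers would give.

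**Figure D5:**
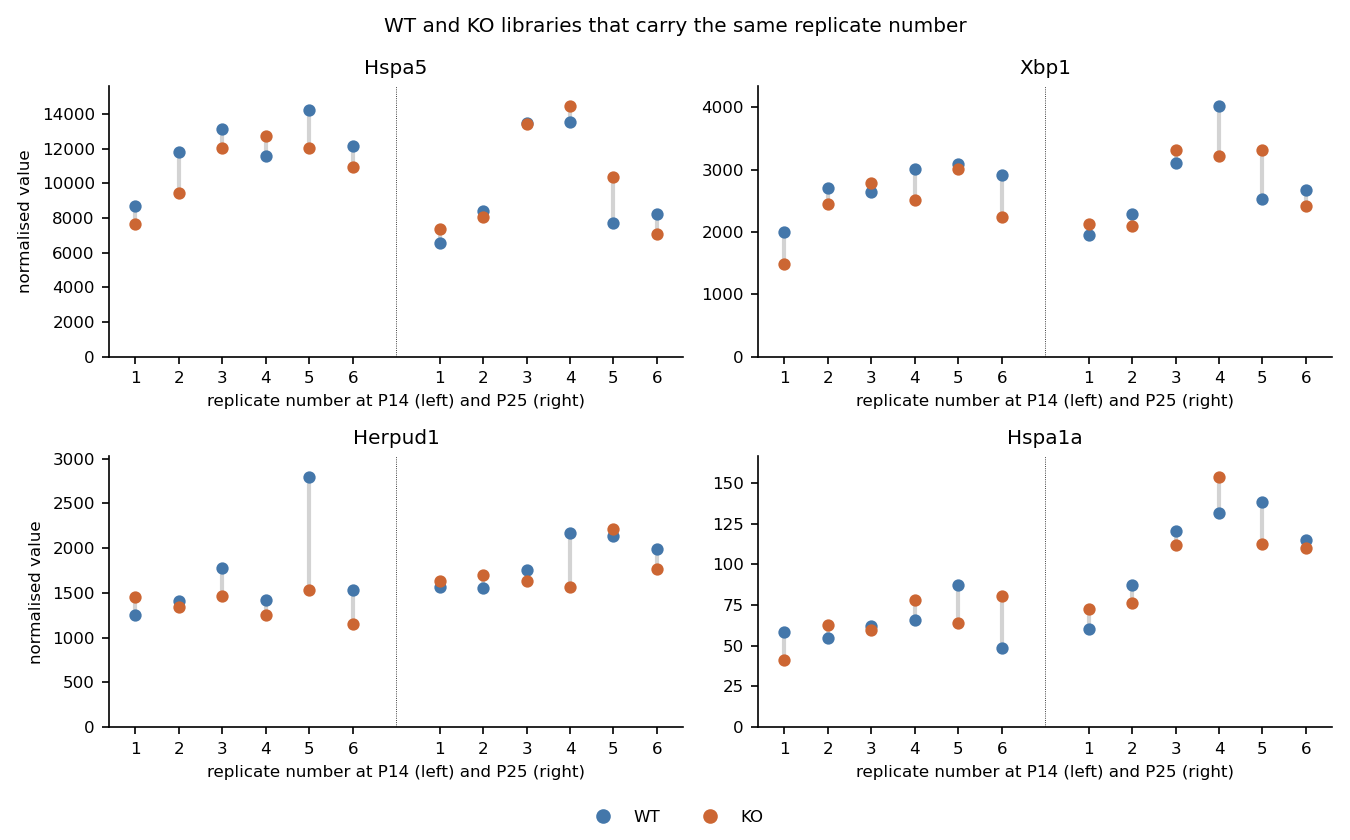
Normalised values of Hspa5, Xbp1, Herpud1 and Hspa1a in WT (blue) and KO (orange) libraries that carry the same replicate number, joined by a grey line, at P14 (left of the dotted line) and P25 (right). Hspa5 values of numbers 3 and 4 at P25 lie between 13441 and 14452 in both genotypes, above the other numbers, while Herpud1 of number 5 at P14 is far apart (2800 and 1526).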

How the data were processed

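Brain RNA of 24 mice was measured by RNA-seq. A TruSeq RNA kit (version 2) was used, per the labels' protocols. Trimmomatic 0.35, TopHat2 2.1.0, HTSeq and DESeq2 are listed with GRCm38, per the submitters' processing notes; the sources used here state neither the annotation release nor the strand setting. The deposited table holds normalised signal, that is, counts that the authors divided by 1 size factor per library (0.825 to 1.22). This was read from the values: 100% of nonzero values came out as whole reads within 0.01. Recovered totals were 27552844 to 40787586 reads per library. No sample column was left unused (0 columns). Symbols and positions came from GENCODE M21 (45229 of 46078 identifiers matched, 98.2%).

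Testing was limited to the 18267 genes whose mean reached 10 and used limma 3.58.1 (trend, R 4.3.3) on log2(value + 1), with 4 group means and 1 batch term per age (18 residual degrees of freedom) and Benjamini-Hochberg adjustment, threshold 0.05. Fold changes on this scale understate those of low genes. Batch-specific effects came from a model of 8 means. The limma fit shared 1 estimate of the spread per gene over all 4 groups. An outlying library thus also widened the SE of comparisons that it was not in. A change of sign under an alternative was counted as a reversal only where neither difference lay within its own SE. P-values measure the spread between these libraries; the design text describes 6 mice per group. All 10 members are named; of each pathway list, the 2 genes with the smallest p in a contrast could be named, and for each member the 3 genes with the highest correlation. Members and lists were chosen with earlier results of these data known; the olfactory epithelium list was added after seeing the data. Alternatives were edgeR 4.0.16 and DESeq2 1.42.0 on the recovered reads, trimmed-mean scaling, pseudocounts of 0.1 and 5, no filter, no batch term, each batch alone, forebrain-rich libraries only, 3 region covariates, the replicate number as a block, each library left out and, chosen after seeing the data, both libraries with markers of tissue outside the brain left out (P14 WT replicate 5, P25 WT replicate 3). The limma fit and the permutation of replicate numbers were tested on simulated data.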

Additional observations from a re-analysis of the deposited data

Results flagged for a closer look

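In groups of 6 libraries, a highest or lowest value was singled out where its gap to the nearest library took over 0.625 of the group's range; chance does this in about 1 group in 20. Of 40 groups (10 genes in 4 groups), 7 held such a value, and 6 of the 7 belonged to P14 WT replicate 5, the library with the olfactory epithelium genes. There Trib3 stood at 579 against a next value of 18.7, Ddit3 at 1108 against 684, Herpud1 at 2800 against 1779, Atf4 at 4755 against 3564 and Hspa1b at 136 against 79.6. Chac1 was the lowest of its group there, at 176 against 206. The other was Herpud1 in P25 KO replicate 5, a cerebellum-rich library, at 2213 against 1765. The part of regional makeup in these values was not tested.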

How the results depend on the processing

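Of 3010 values of the 10 genes under alternatives, 2796 kept their direction and their side of the threshold; 171 stayed on their side but changed sign where at least 1 of the compared differences lay within its SE, 27 no longer passed, 15 newly passed and 1 reversed, Herpud1 in KO against WT at P14, at 0.063 in forebrain-rich libraries only. Of 410 values with edgeR, trimmed-mean scaling, other pseudocounts or no filter, all kept their side of the threshold, and 6 changed sign within an SE. Single batches and forebrain-rich libraries hold fewer samples; otherwise the cause of the changes below was not tested. DESeq2 called 1, 4 and 1 genes for KO against WT at P14, at P25 and for the difference, and 3374 for age in KO. Forebrain-rich libraries gave 85 (KO against WT at P25) and 36 genes (difference), 2318 genes, 0 members and 22 other pathway genes for age in WT, and 3254 genes for age in KO. At P25 that set holds only 2 WT and 2 KO libraries, all of the first batch. With 3 region covariates there was 1 gene for KO against WT at P25, and 1974 genes and 20 pathway genes for age in WT. Without a batch term, age in WT gave 1649 genes and 17 pathway genes, and age in KO 444 genes, 0 members and 4 pathway genes. The first batch only gave 53 genes, 0 members and 0 pathway genes for age in WT and 45, 0 and 0 in KO; the second batch only gave 0, 0 and 0 in KO. Without the filter age in KO gave 1311 genes and 10 pathway genes. Without the libraries with markers of tissue outside the brain, 5 members passed for age in WT and 6 between batches at P25.

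With the replicate number as a block over both ages, in place of the batch terms, age gave 2468 genes in WT and 768 in KO, with 7 pathway genes in KO. No first element of a sample name occurs at both ages, so this age fit does not test a pairing of the samples. The paired deviations of same-numbered WT and KO libraries correlated above 0.1 in 1 of 6 pairs at P14 and 4 of 6 at P25, and a WT library matched the KO library of its own number best in 1 case at each age. Numbers 4 and 5 at P14 share the first element of their sample name; by that element 3 of 6 WT libraries at P14 and 1 of 6 at P25 had a best match that shared it. Correlations did not exceed 0.1 in every pair, so the numbers were not used as pairs in the main fit. The deviations were taken from group means over both batches and so also hold batch and regional makeup. This check therefore cannot exclude a pairing.

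Leaving out each library in turn gave 0 to 1 genes for KO against WT at P25 and for its change between batches. For age in WT it gave 3289 to 6585 genes, 3 to 5 members and 26 to 54 pathway genes. For age in KO it gave 812 to 6858 genes, 1 to 5 members and 6 to 45 pathway genes, against 2163, 3 and 18 with all libraries; the highest counts came without P25 KO replicate 4 and the lowest gene count without P25 KO replicate 5. Between batches it gave 493 to 1443 genes and 2 to 15 pathway genes at P14, and 2 to 6 members at P25.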
